A study of Mus musculus with 9 samples.

Results

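Sinusoidal endothelial barcodes were picked out of single-cell libraries of mouse liver by their own counts of unique molecular identifiers (UMIs, one per captured RNA molecule). In all 9 libraries, a barcode with at least 200 genes was taken when its UMIs summed to at least 4 over Ptprb, Kdr, Stab1, Stab2, Clec4g, Dnase1l3, Fcgr2b, Gpr182, Ehd3 and Oit3, came from at least 3 of these genes, and outnumbered both the UMIs of 6 Kupffer cell genes (Clec4f, Cd5l, Vsig4, C1qa, C1qb, C1qc) and those of 4 T and NK cell genes (Cd3d, Trac, Trbc2, Nkg7). This gave 596 endothelial barcodes of 44898 barcodes with at least 200 genes, or 1.33%, holding 698226 UMIs. The livers came from wild-type male C57BL/6 mice aged 8 weeks that had received an intravenous injection. Mice 3, 6 and 9 received AAVrh.10mCherry, mice 2, 5 and 8 received AAVrh.10Null, and mice 1, 4 and 7 received PBS (n = 3 each). AAVrh.10 is a serotype of adeno-associated virus that serves as a vector in gene therapy, and mCherry is a fluorescent protein that gives red light. The promoter of the vectors, the dose and the time after injection are not given in the sources used here.

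Liver sinusoidal endothelial cells line the capillaries between the hepatocyte plates. They carry open pores without a diaphragm and lack a firm basement membrane, so plasma reaches the hepatocytes directly. They are known as the main scavenger endothelium of the body and take up collagen fragments, hyaluronan, modified lipoproteins and immune complexes through stabilins, the mannose receptor and the Fc receptor Fcgr2b. Along the sinusoid they differ between the portal and the central vein, and they send signals such as Wnt2 and Bmp2 to the hepatocytes.

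Between 13 and 136 endothelial barcodes came from each mouse, and their summed depth ranged from 4766 UMIs in PBS mouse 7 to 143224 UMIs in PBS mouse 1. PBS mouse 7 stood apart: 550 of its 3600 barcodes reached 200 genes, its endothelial barcodes had a median of 362 UMIs against 770.0 to 2084 in the other mice, and 1 UMI there equals 209.8 CPM. CPM is the number of UMIs of a gene per 1000000 UMIs of the same set of barcodes. Barcodes ending in an undetermined base made up 25.4% to 27.5% of the barcodes in mice 1, 3, 4, 5, 6 and 9, 4.83% in mouse 7, and 0.0972% and 0.278% in AAVrh.10Null mice 2 and 8. Of the endothelial barcodes, 112 ended that way and 2 carried a barcode sequence that another library also held. The mouse is the replicate throughout.

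The genes of the rule describe the barcodes and were not tested. Ptprb, an endothelial receptor phosphatase that acts on the Tie2 receptor, was detected in 85.9% of the endothelial barcodes and Kdr, the main VEGF receptor, in 67.4%. Clec4g, a sinusoidal lectin, and Ehd3, an endocytic recycling protein, were each detected in 71.6%. Dnase1l3, a secreted DNase, reached 69.6%, the Fc receptor Fcgr2b 62.2%, and the scavenger receptors Stab2 and Stab1 50.2% and 32.0%. Oit3 and the atypical chemokine receptor Gpr182 were found in 32.2% and 23.2%. An endothelial barcode held a median of 10.0 rule UMIs (range 4 to 53) from a median of 6.0 of the 10 genes. At the threshold, 62 endothelial barcodes had exactly 4 rule UMIs and held 3453 CPM of 20 endothelial genes that the rule does not use. The 54 barcodes just outside it, with 3 UMIs from 3 genes, held 2826 CPM, and the 36 with at least 4 UMIs from only 2 genes held 3564 CPM. The 485 endothelial barcodes with 6 or more rule UMIs held 11727 CPM, and the 40859 barcodes without any rule UMI held 214.5 CPM. The barcodes just inside and just outside the threshold thus lay closer to each other in these genes than to those with 6 or more rule UMIs.

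Endothelial genes outside the rule followed the label in every mouse. Summed over 20 such genes, the endothelial barcodes held 9312, 16051 and 9044 CPM in AAVrh.10mCherry mice 3, 6 and 9, 12560, 6609 and 12089 in AAVrh.10Null mice 2, 5 and 8, and 4936, 11152 and 13009 in PBS mice 1, 4 and 7. The other barcodes of the same mice held 187 to 600 CPM, so the ranges did not overlap. Igfbp7, a secreted vessel-wall protein, was detected in 77.0% of the endothelial barcodes and 3.03% of the others. For Aqp1, the water channel of endothelium, the shares were 60.9% and 0.704%, and for the mannose receptor Mrc1 60.1% and 1.12%. Bmp2, a signal that drives hepcidin expression in hepatocytes, was detected in 49.2% and 0.512%, and Egfl7, a secreted endothelial protein, in 45.6% and 0.616%. All 20 genes were detected, and 15 of them were higher in the endothelial barcodes in 9 of 9 mice, with Cdh5, Tek, Cd36 and Ramp2 in 8 and Tie1 in 7. The transcription factor Gata4 was among the sparsest, in 6.54% of endothelial barcodes and 0.526% of the others.

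For a pair of these genes the sequence upstream of the transcript is shown. The 250 bases before the RefSeq start (GRCm38.p6) are given for Aqp1 and Mrc1. Aqp1 had the largest fold difference among the listed genes with a single promoter entry, and it holds no match to the letters searched. Mrc1 is shown because it holds such a match. Capitals mark CAGGAA, a form of the site bound by ETS factors, or its reverse TTCCTG. The shorter GGAA or its reverse TTCC, which both sequences also hold unmarked, was not searched.
Aqp1, chr6:55336049-55336298, plus strand: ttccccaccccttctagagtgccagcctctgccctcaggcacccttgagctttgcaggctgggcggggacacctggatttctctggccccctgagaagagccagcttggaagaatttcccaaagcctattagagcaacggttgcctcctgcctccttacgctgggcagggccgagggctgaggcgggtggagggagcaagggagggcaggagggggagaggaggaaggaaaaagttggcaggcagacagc
Mrc1, chr2:14229164-14229413, plus strand: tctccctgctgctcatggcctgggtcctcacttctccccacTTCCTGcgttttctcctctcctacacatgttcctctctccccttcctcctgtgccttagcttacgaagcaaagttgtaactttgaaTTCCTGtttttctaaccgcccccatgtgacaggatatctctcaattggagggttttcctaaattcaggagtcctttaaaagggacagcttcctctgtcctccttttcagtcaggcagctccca
RefSeq promoters were found for 13 of the 20 genes. CAGGAA or TTCCTG was present in 4 of these 13 (Egfl7, Mrc1, Tek and Tie1) and in 25.4% of all 27025 promoters. AGATAA, a form of the site bound by GATA factors, or its reverse TTATCT was present in 0 of 13 and in 10.3% of all promoters. Other forms of these sites were not searched. The 2 motifs do not overlap in letters, and a match is a description of the sequence, not a binding site.

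Within each mouse, summed UMIs of the endothelial barcodes were compared with those of the other barcodes by edgeR's quasi-likelihood test with the mouse as a block. Of 2559 genes outside the rule that passed the filter on low counts, 609 were higher (23.8%) and 718 lower (28.1%) in the endothelial barcodes at an adjusted p under 0.05, or 51.9% in either direction. The split depends on the scaling: it was 485 higher and 955 lower with DESeq2's size factors in the same fit, 422 and 866 with DESeq2, and 763 and 596 with no scaling beyond totals. The median log2 difference of all genes moved with it, at -0.04, -0.20, -0.21 and 0.07. An endothelial gene reaches the filter mostly through the endothelial barcodes, so a count over such genes that passed it supports nothing, and their values are given as a description.

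The largest differences belonged to vascular genes, and each was higher in 9 of 9 mice. Btnl9, a butyrophilin-like surface protein, had 83.1 to 629 CPM in the endothelial barcodes (median 354) and 0.0 to 3.65 in the others, a log2 difference of 7.44 (SE 0.27). Emcn, the endothelial sialomucin endomucin, had 55.9 to 209.8 CPM against 0.0 to 1.14 (log2 difference 7.33, SE 0.43). Aqp1 had 457 to 1571 CPM against 2.85 to 10.5 (log2 difference 7.04, SE 0.17, adjusted p 6.16e-72 in edgeR). Plxnd1, a semaphorin receptor, Mmrn2, a vessel-wall glycoprotein, Lyve1, a hyaluronan receptor, and Esam, a junction protein, had log2 differences of 6.92, 6.85, 6.79 and 6.72. Flt4, the VEGF-C receptor, Myct1, Npr1, the natriuretic peptide receptor, Plpp1, Gpihbp1, which anchors lipoprotein lipase to capillaries, Adgrf5 and Cyp4b1 lay between 6.58 and 6.73. At the other end stood Angptl8, Slc25a10, Gm2a, Glyctk and Gckr, with log2 differences of -1.53 to -1.32. Angptl8, a secreted regulator of lipoprotein lipase, had 0.0 to 185 CPM in the endothelial barcodes and 42.0 to 483 in the others, and was lower in 9 of 9 mice.

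**Figure D1:**
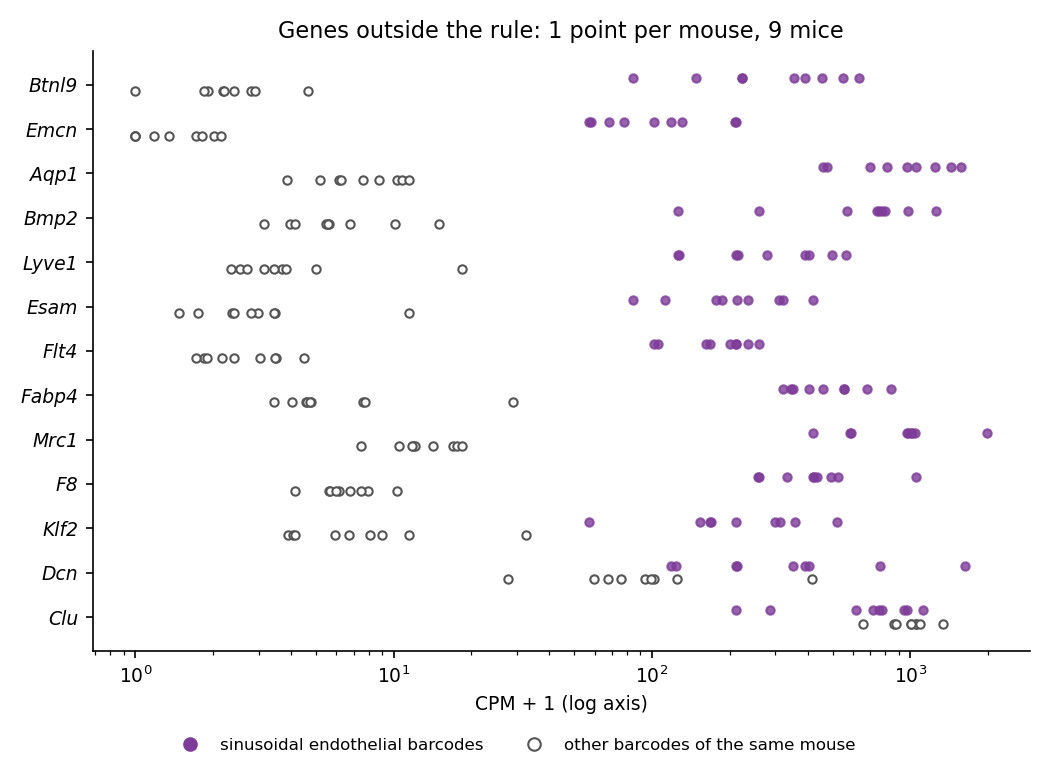
CPM plus 1 (log axis) for 13 genes outside the rule, with 1 filled point per mouse for the sinusoidal endothelial barcodes and 1 open point for the other barcodes of that mouse. The 2 sets of points do not overlap for genes such as Btnl9, Aqp1 and Mrc1, and they overlap for Clu and Dcn.

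Of 18 scavenger and endocytic genes 10 were tested, 8 were higher and 1 was lower, beside 23.8% and 28.1% of all genes. Endothelial genes reach the filter mostly through the endothelial barcodes, so these counts are a description only. Without PBS mouse 7, when 8698 genes could be tested and edgeR called 14.7% of them higher and 21.7% lower, 10 of 16 scavenger and endocytic genes were higher and 3 lower. The summed list was not particular to the endothelial barcodes. Over the mice it had a median of 5412 CPM there (3261 to 7349) and 7717 in barcodes chosen by Kupffer cell genes (3792 to 9295). In the other barcodes the median was 1735, and in those chosen by T and NK cell genes 1191. Mrc1, which binds collagen and mannose-rich glycoproteins, had 420 to 1982 CPM in the endothelial barcodes and 6.50 to 17.4 in the others (log2 difference 6.28, SE 0.16). Dab2, a clathrin adaptor, had 189 to 731 CPM against 3.60 to 17.4 (log2 difference 5.95, SE 0.21). The clathrin heavy chain gene Cltc and the lysosomal genes Scarb2 and Ctsl had log2 differences of 1.61, 1.21 and 1.08. With no filter on low counts, Scarb2 (0.41) and Ctsl (0.26) missed the threshold. Lrp1, an endocytic receptor, was the lower one at -0.62 (SE 0.23, adjusted p 0.0192 in edgeR), and it missed the threshold without scaling beyond totals, without the mouse block, and without AAVrh.10mCherry mouse 6 or AAVrh.10Null mouse 8. Without PBS mouse 7, the scavenger receptors Msr1 (4.76), Cd36 (3.77) and Scarf1 (1.73) also passed. Scarb2, Lrp1 and Scarf1 were singled out after their values were seen.

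Signals of the sinusoid to its surroundings were sparse. Wnt2, the Wnt ligand of the pericentral endothelium, was detected in 11.1% of endothelial barcodes and 0.117% of the others. Rspo3, which amplifies Wnt signals, was found in 3.02% and 0.370%, Wnt9b in 0.839% and 0.00677%, and Hgf in 5.54% and 0.415%. The Notch ligand Dll4 and ephrin Efnb2, both known from the portal side, reached 4.03% and 4.19% of endothelial barcodes. Cxcl12 had 0.0 to 166 CPM in the endothelial barcodes and 97.1 to 167 in the others, with a log2 difference of -0.40 (adjusted p 0.0835 in edgeR), and 7 alternatives called it lower. Of 20 Notch, VEGF and TIE genes 8 were tested and 7 were higher, beside 23.8% of all genes, which is likewise a description only. Among the higher were Flt1 (log2 difference 6.45), the endoglin gene Eng (6.25), Nrp1 (3.51) and Id3 (2.37), the last chosen after its value was seen. Hey1 and Hey2, targets of Notch in arteries, were detected in 0 of 596 barcodes, which allows up to 0.503% of barcodes with a UMI. At these depths this limits detection, not the share of cells that express the genes.

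Genes of both ends of the sinusoid were found together in most endothelial barcodes. A pericentral list of 10 genes (Wnt2, Wnt9b, Rspo3, Kit, Thbd, Cdh13, Fabp4, Lhx6, Plxnc1 and Gatm) was detected in 70.0% of endothelial barcodes and 2.03% of the others. A periportal list of 10 genes (Efnb2, Dll4, Ltbp4, Msr1, Ntn4, Adam23, Ly6a, Cd36, Lama4 and Btnl9) was detected in 75.2% and 3.44%. Both lists were detected in 331 barcodes, only the pericentral list in 86, only the periportal list in 117 and neither in 62. With the narrower sets the overlap was small: 82 barcodes held Wnt2, Wnt9b or Rspo3, 47 held Efnb2 or Dll4, and 2 held both kinds. These sets were detected in only 13.8% and 7.89% of endothelial barcodes, and at such shares a small overlap does not show separate zones. Fabp4, a fatty acid carrier of capillary endothelium, had 320 to 839 CPM in the endothelial barcodes and 2.44 to 27.9 in the others. Kit was detected in 10.1% of endothelial barcodes and 0.0745% of the others. Whether the barcodes fall into zones was not tested.

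Of 13 genes of larger vessels 1, Clu, was tested. Vwf was detected in 0.168% of endothelial barcodes, Cd34 in 1.01%, Edn1 in 0.168% and Selp in 0.336%, while Gja5, Mgp and Sele were at 0. Other genes of the list were detected more often in the endothelial barcodes than in the others. The shares were 11.2% and 0.718% for the proteoglycan gene Bgn, 8.89% and 0.553% for the ephrin receptor gene Ephb4, and 7.21% and 0.104% for the connexin gene Gja4. For the ephrin gene Efnb1 they were 6.54% and 0.677%, and for the transcription factor gene Sox17 4.53% and 0.0497%. Clu, a secreted chaperone that hepatocytes also make, had 209.8 to 1122 CPM in the endothelial barcodes and 657 to 1334 in the others and was lower in 8 of 9 mice (log2 difference -0.58, adjusted p 0.000261 in edgeR, or 0.0568 without the mouse block). Of the clotting genes, F8, the factor VIII gene whose main source in the body is liver endothelium, had 256 to 1050 CPM against 3.15 to 9.32 (log2 difference 6.27, SE 0.19). Tfpi was detected in 14.6% and 0.192%, and Thbd in 3.69% and 0.0609%. Serping1 (-0.80) and Proc (-0.74), both known hepatocyte products, were lower in the endothelial barcodes.

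Of 10 genes of the flow response 4 were tested and 4 were higher, beside 23.8% of all genes. Endothelial genes reach the filter mostly through the endothelial barcodes, so this count is a description only. Over the mice the summed list had a median of 1189 CPM there (600 to 2562) and 83.3 in the other barcodes. Kupffer barcodes had a median of 749 (0.0 to 1008) and T and NK barcodes 441 (0.0 to 999.5), so their ranges overlapped the endothelial range. Klf2, the flow-induced transcription factor, had 55.9 to 521 CPM in the endothelial barcodes and 2.89 to 31.4 in the others (log2 difference 5.15, SE 0.27). Sgk1 and the receptor gene Calcrl had log2 differences of 4.72 and 5.57. Klf3 had 1.28, and 0.48 with no filter on low counts, where it missed the threshold. Nos3, the endothelial nitric oxide synthase, was detected in only 2.52% of endothelial barcodes and 0.194% of the others. Of 16 matrix genes 4 were tested. Sparc (5.06), Timp3 (6.16) and Col4a1 (4.99), a basement membrane collagen, were higher and fibronectin Fn1 (-0.64) was lower. Ccnd1, a cyclin, had a log2 difference of 3.79 (SE 0.24). Pecam1, a junction protein of all endothelium, had 119 to 629 CPM against 1.20 to 6.98.

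Of 20 MHC class I presentation genes 11 were tested and 8 were higher, beside 23.8% of all genes. Their median log2 difference was 0.63 against -0.04 over all genes. Without PBS mouse 7, 19 were tested, 8 were higher and 1, the chaperone gene Calr (-0.53), was lower, beside 14.7% and 21.7% of all genes. The summed list was not highest in the endothelial barcodes. Its median over mice was 8714 CPM there, 5976 in the other barcodes, 9871 in barcodes chosen by Kupffer cell genes and 12726 in those chosen by T and NK cell genes. H2-D1, a classical class I heavy chain, had 582 to 1679 CPM in the endothelial barcodes and 228 to 408 in the others (log2 difference 1.69, SE 0.13), whereas B2m, singled out after its value was seen, gave 0.18 with an adjusted p of 0.316 in edgeR and turned negative without PBS mouse 1 or 7. Of 34 type I interferon response genes 4 were tested, and Bst2 (0.94) and Ifi27 (0.46) were higher, although Ifi27 missed the threshold under most alternatives and Bst2 with no filter on low counts (0.13). Without PBS mouse 7, 26 of them could be tested, 8 were higher and 2 lower, beside 14.7% and 21.7% of all genes. Among these the DNA-binding Ifi203 (log2 difference 4.23) and Ifi204 (4.13) and the antiviral genes Ifit2 (3.33) and Rsad2 (2.14) were higher in 8 of 8 mice, from 115, 55, 25 and 52 endothelial UMIs. Genes that are high in the endothelial barcodes can reach the filter through them, so the counts of higher genes are a description only. The summed interferon list was not highest in the endothelial barcodes. Its median over mice was 2385 CPM there, 1579 in the other barcodes, 4699 in Kupffer barcodes and 2128 in T and NK barcodes. The NF-kB inhibitor Nfkbia (1.56) was higher. Of 16 immediate early genes 9 were tested, with a median log2 difference of -0.31, and 6 of them lay below 0. The phosphatase gene Dusp1 (1.32) was higher, and Zfp36 (-0.55), whose protein promotes mRNA decay, was lower. Dusp1 missed the threshold with DESeq2 (0.89) and with no filter (0.50), and Zfp36 without scaling beyond totals, without the mouse block and without AAVrh.10mCherry mouse 9. Of 24 host genes of AAV entry and trafficking 9 were tested, 7 were higher and 1 was lower, beside 23.8% and 28.1% of all genes. Without PBS mouse 7 the counts were 5 and 4 of 20, near the shares of all genes, 14.7% and 21.7%. Itgb1, an integrin chain, had 305 to 748 CPM against 83.7 to 134 (log2 difference 1.92), and Egfr had 0.0 to 540 against 92.4 to 609 (-0.84), a difference that missed the threshold without the mouse block (adjusted p 0.0809 in edgeR).

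No direction is given for the cytosolic ribosomal genes as a group, since their calls turned with the settings: of 78 genes 20 were higher and 1 lower in the main comparison, 12 and 6 with DESeq2's size factors, 4 and 12 without PBS mouse 1, and 0 and 20 of 80 without PBS mouse 7.

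The endothelial barcodes carried hepatocyte transcripts in every mouse. A list of 15 hepatocyte genes, albumin (Alb) among them, took 6.49% to 16.5% of their UMIs (median 12.9%) and 13.5% to 22.8% in the other barcodes. The difference averaged -6.29 ± 1.47 percentage points (SD, n = 9), was negative in 9 of 9 mice, and had an exact sign-flip permutation p of 0.00391, two-sided and chosen after seeing the data (0.00781 adjusted over 3 quantities). All 15 genes were lower in edgeR, with a median log2 difference of -0.82. Per mouse, the median gene of the list stood at 49.6% of its level in the other barcodes in AAVrh.10mCherry mouse 6 and at 79.8% in PBS mouse 1, the extremes of the 9 mice. Mitochondrially encoded transcripts took 2.90% to 12.7% of UMIs in the endothelial barcodes and 3.44% to 18.04% in the others (mean difference -2.92 ± 2.96 points, SD, n = 9, lower in 8 of 9 mice, exact sign-flip permutation p 0.00781). Malat1, a nuclear RNA, was higher in 8 of 9 mice, by 4776 CPM on average (exact sign-flip permutation p 0.00781, n = 9), and in AAVrh.10Null mouse 2 it had 20891 CPM against 23042. How far free hepatocyte RNA contributes to the endothelial barcodes was not tested.

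Markers of other cell types were low. The 10 Kupffer and macrophage genes summed to 0.0 to 208 CPM in the endothelial barcodes, with Adgre1 at 0, and the 8 T and NK genes to 0.0 to 185. Of these, the rule itself limits 6 and 4. B cell genes reached 69.0, cholangiocyte genes 35.1 with Krt19 and Epcam at 0, and neutrophil genes 0. Stellate and fibroblast genes were the exception and stood at 286, 974 and 437 CPM in AAVrh.10mCherry mice, 680, 3076 and 1704 in AAVrh.10Null mice, and 712, 582 and 209.8 in PBS mice, with Col1a1 at 0. Dcn, decorin of stellate cells and fibroblasts, had 118 to 1621 CPM in the endothelial barcodes and 26.7 to 415 in the others (log2 difference 2.08, SE 0.21). Ecm1 had a log2 difference of 2.23 (SE 0.26). Doublets were not called, and whether stellate cells shared these droplets was not tested.

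The share of endothelial barcodes did not separate the groups. In AAVrh.10mCherry mice 3, 6 and 9 it was 0.975%, 2.44% and 1.42%, in AAVrh.10Null mice 2, 5 and 8 it was 1.46%, 0.525% and 0.904%, and in PBS mice 1, 4 and 7 it was 1.25%, 1.27% and 2.36%. The groups overlapped, with means of 1.61 ± 0.748%, 0.963 ± 0.470% and 1.63 ± 0.637% (SD, n = 3 each). AAVrh.10mCherry minus PBS was -0.017 percentage points (exact permutation p 1.0), AAVrh.10Null minus PBS -0.666 (exact permutation p 0.3), and AAVrh.10mCherry minus AAVrh.10Null 0.649 (exact permutation p 0.3). These tests were two-sided, and 3 mice against 3 cannot go below 0.1. After each barcode was thinned to 500 UMIs the shares were 0.525%, 2.11% and 0.720% in AAVrh.10mCherry mice, 1.11%, 0.175% and 0.711% in AAVrh.10Null mice, and 0.404%, 0.834% and 0.0% in PBS mice, the last from 0 of 127 barcodes, which allows a share of up to 2.36%. Thinning turned both differences from PBS positive, to 0.707 for AAVrh.10mCherry and 0.253 for AAVrh.10Null, so no order of the groups can be read from the shares. A share of barcodes also reflects how many endothelial cells survived isolation.

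**Figure D2:**
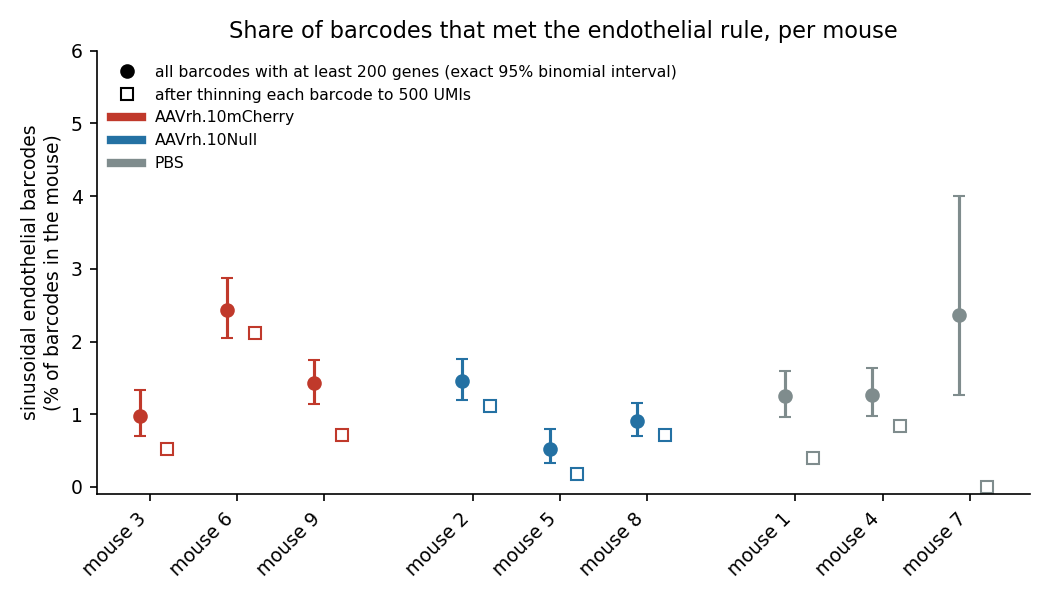
Percentage of barcodes that met the endothelial rule in each mouse, with exact 95% binomial intervals (filled circles), and the same share after thinning to 500 UMIs (open squares). AAVrh.10mCherry mouse 6 and PBS mouse 7 are highest before thinning at 2.44% and 2.36%, and PBS mouse 7 falls to 0.0% after it.

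The mitochondrial share of endothelial UMIs averaged 7.46 ± 1.63% in AAVrh.10mCherry mice, 8.41 ± 3.74% in AAVrh.10Null mice and 5.02 ± 2.41% in PBS mice (SD, n = 3 each), with exact permutation p of 0.2 and 0.3 against PBS. The hepatocyte genes took 11.2 ± 4.22%, 12.9 ± 2.46% and 15.01 ± 1.85% (SD, n = 3 each), with exact permutation p of 0.2 and 0.3 against PBS. Median UMIs per endothelial barcode averaged 1157 ± 321, 889 ± 124 and 1155 ± 869. Over these 15 comparisons no adjusted p fell below 0.563.

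mCherry UMIs were found in the endothelial barcodes of each mouse that received AAVrh.10mCherry. They held 4951, 2923 and 1312 CPM in mice 3, 6 and 9, from 294, 348 and 171 UMIs. In AAVrh.10Null mice 0 UMIs were found, and in PBS mice 1 UMI, in mouse 1. The groups did not overlap, and edgeR called mCherry higher against PBS (adjusted p 2.07e-06) and against AAVrh.10Null (adjusted p 9.47e-07). Pooled over mice, the level was 575 times that of PBS mice (95% counting interval 103 to 22736) and at least 150.1 times that of AAVrh.10Null mice, taking 3 UMIs over the group as the limit that a count of 0 allows. Intervals cover counting error only. PBS mouse 1 and AAVrh.10Null mouse 5 held 272 and 96 mCherry UMIs in their other barcodes.

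In the endothelial barcodes of AAVrh.10mCherry mice 3 and 6, mCherry and Alb stood at similar fractions of their levels in the other barcodes. In mouse 9 the mCherry fraction was the larger, at 72.7% against 57.2% for Alb. An mCherry UMI was detected in all 39 endothelial barcodes of mouse 3 and in 83.1% and 72.5% of those of mice 6 and 9, with median depths of 1373, 788 and 1310 UMIs. In the other barcodes the shares were 99.9%, 97.7% and 86.6%, with median depths of 1372, 764 and 1218 UMIs. Barcodes chosen by T and NK cell genes held an mCherry UMI in 9 of 9 cases in mouse 3 and in 94.7% of 19 and 92.9% of 14 in mice 6 and 9, with median depths of 2002, 1067 and 1520 UMIs. Barcodes chosen by Kupffer cell genes did so in 94.4% of 18 in mouse 3, 6 of 8 in mouse 6 and 62.5% of 16 in mouse 9, with median depths of 1477.5, 1098 and 1372 UMIs. The mCherry level of the endothelial barcodes was 61.8%, 46.9% and 72.7% of that in the other barcodes, and their Alb level 62.9%, 42.6% and 57.2%. Per 100 Alb UMIs, the endothelial barcodes held 22.4, 17.5 and 5.60 mCherry UMIs and the other barcodes 22.8, 15.8 and 4.41. The ratio of these ratios was 0.982, 1.103 and 1.27 in mice 3, 6 and 9, with a mean of 1.12 ± 0.145 (SD, n = 3). In T and NK barcodes of the same mice mCherry stood at 25.6, 17.7 and 4.52 per 100 Alb UMIs, and in Kupffer barcodes at 21.5, 20.8 and 4.88. The counting intervals of the endothelial barcodes overlapped those of the T and NK barcodes in all 3 mice. In mouse 9 the endothelial interval, 4.77 to 6.54, lay above that of the other barcodes, 4.34 to 4.48. The 15 hepatocyte genes of mouse 9 stood at 57.2% to 90.5% of their level in the other barcodes (median 66.2%). Alb was the lowest of them, and the mCherry fraction of 72.7% lay within their range. mCherry also lay within the ranges of mice 3 and 6, 52.4% to 78.9% and 35.8% to 54.6%. Whether endothelial cells themselves transcribed mCherry was not tested.

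**Figure D3:**
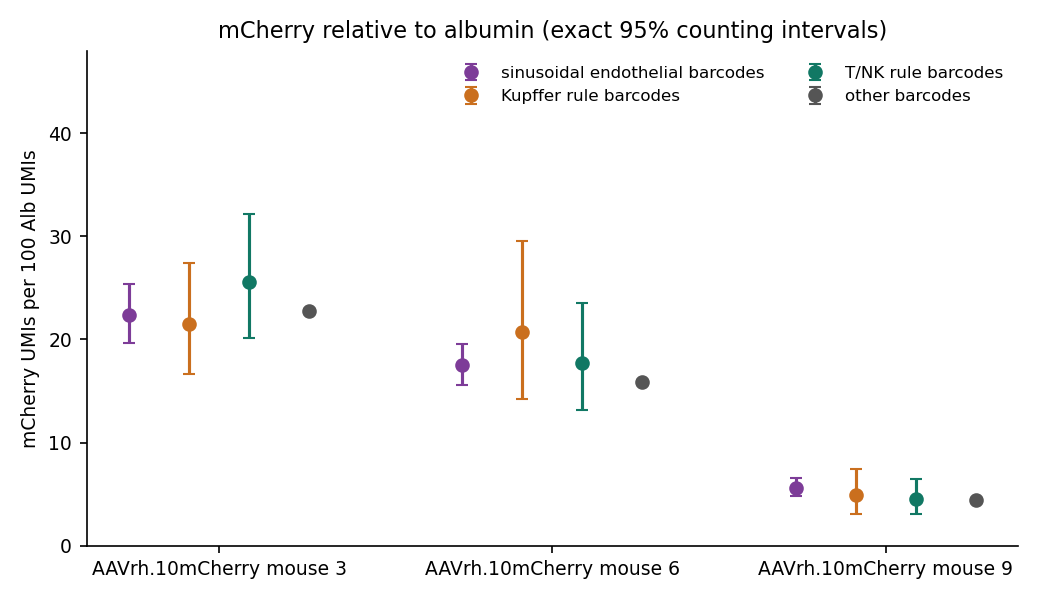
mCherry UMIs per 100 Alb UMIs in the 3 AAVrh.10mCherry mice, for endothelial, Kupffer, T and NK, and other barcodes, with exact 95% counting intervals. The endothelial barcodes lie at 22.4, 17.5 and 5.60 in mice 3, 6 and 9, beside 22.8, 15.8 and 4.41 in the other barcodes.

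Igkv3-12, an immunoglobulin light chain variable segment, had 7, 3 and 5 UMIs in the endothelial barcodes of mice 2, 5 and 8, or 82.0, 125 and 81.1 CPM. The other barcodes of these mice held 125, 248 and 233 CPM, and no endothelial barcode of the AAVrh.10mCherry or PBS mice held a UMI. Taking 3 UMIs as the limit, a count of 0 allows 629 CPM in PBS mouse 7. In the remaining AAVrh.10mCherry and PBS mice it allows 20.9 to 50.5 CPM. The other barcodes of AAVrh.10mCherry mouse 6 held 15 Igkv3-12 UMIs.

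Apart from mCherry, no gene passed the threshold between treatment groups in the endothelial barcodes. One edgeR fit over the 9 mice tested 1411 genes outside the rule. For AAVrh.10mCherry against PBS it called 1 gene (0.0709%), for AAVrh.10mCherry against AAVrh.10Null 1 gene (0.0709%), and for AAVrh.10Null against PBS 0 genes (0.0%), and DESeq2 also called 1, 1 and 0. At an unadjusted p under 0.05 in edgeR the counts were 65, 45 and 40, each below the 70.55 expected by chance over 1411 genes. Both comparisons with PBS share the same 3 PBS mice, 1 of them with 13 endothelial barcodes. The spread between mice was wide, with a biological coefficient of variation of 0.331.

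The genes with the smallest p are given as values only, since each had an adjusted p of 0.764 or more in edgeR. Msr1, a scavenger receptor for modified lipoproteins, had 152, 571 and 345 CPM in AAVrh.10mCherry mice, 223, 166 and 211 in AAVrh.10Null mice, and 83.8, 128 and 0.0 in PBS mice. Every AAVrh.10mCherry mouse lay above every PBS mouse for Msr1, as for 90 of the 1411 genes (6.38%), and 59 (4.18%) lay lower in this way. Mbnl1, a splicing regulator, had 236, 210.0 and 169 CPM in AAVrh.10mCherry mice against 55.9, 56.8 and 0.0 in PBS mice. Gimap6, a GTPase of lymphocytes and endothelium, had 370, 605 and 391 CPM in AAVrh.10mCherry mice against 126, 241 and 209.8 in PBS mice. Epas1, the hypoxia factor HIF-2 alpha of endothelium, had 129, 208 and 438 CPM in AAVrh.10Null mice against 55.9, 85.2 and 0.0 in PBS mice. Insig2, a brake on sterol synthesis, had 82.0, 83.1 and 162 CPM in AAVrh.10Null mice against 377, 369 and 209.8 in PBS mice. The groups did not overlap for Mbnl1, Gimap6, Epas1 and Insig2. Of the 1411 genes, 63 (4.46%) lay higher in every AAVrh.10Null mouse than in every PBS mouse and 60 (4.25%) lower. Several of the PBS values rest on 0 or 1 UMI in mouse 7. Dcn had 118, 403 and 123 CPM in AAVrh.10mCherry mice, 351, 1621 and 763 in AAVrh.10Null mice, and 391, 213 and 209.8 in PBS mice. The AAVrh.10mCherry and AAVrh.10Null mice overlapped for Dcn (log2 difference -2.001, adjusted p 0.826 in edgeR), which passed only without AAVrh.10mCherry mouse 6 (-2.81, adjusted p 0.000172), and the stellate genes named above moved with it.

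**Figure D4:**
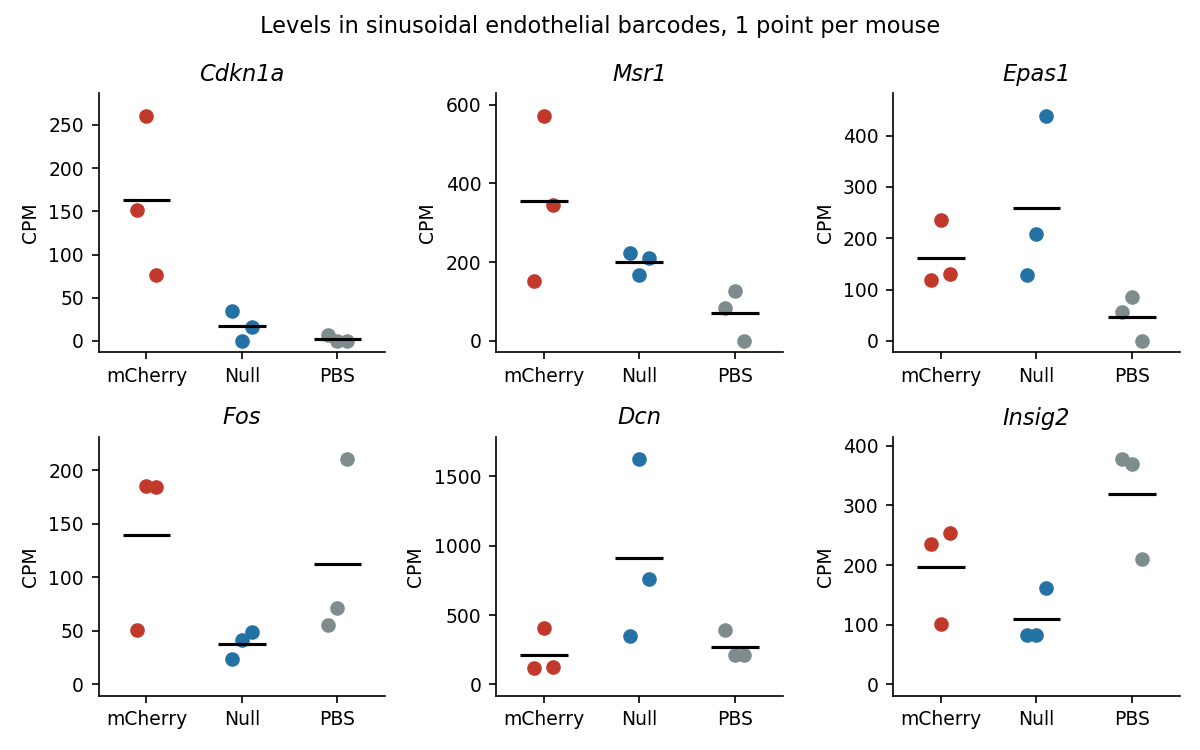
CPM in the endothelial barcodes for 6 genes, with 1 point per mouse, the group mean as a line, and AAVrh.10mCherry, AAVrh.10Null and PBS from left to right. Cdkn1a is at 76.7 or more in each AAVrh.10mCherry mouse and at 35.1 or less in the other 6 mice.

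Listed gene groups gave 0 calls in each comparison between treatments, so they are described by their medians. The 18 tested endothelial genes outside the rule had log2 differences above 0 in all 18 cases for AAVrh.10mCherry minus PBS (median 0.58, all genes 0.06) and for AAVrh.10Null minus PBS (median 0.53, all genes 0.04). These genes come from the same barcodes and are not independent cases. The summed list overlapped between groups, at 9312, 16051 and 9044 CPM in AAVrh.10mCherry mice, 12560, 6609 and 12089 in AAVrh.10Null mice, and 4936, 11152 and 13009 in PBS mice. The lowest sum was that of PBS mouse 1, whose endothelial barcodes were deepest (median 2084 UMIs). The part of depth was not tested. The hepatocyte list had 13 of 15 genes below 0 for AAVrh.10mCherry minus PBS (median -0.32) and 9 of 15 for AAVrh.10Null minus PBS (median -0.13). The mitochondrially encoded genes had 8 of 8 above 0 in both, with medians of 0.33 and 0.89. The part of these lists in the endothelial shift was not tested. Without AAVrh.10Null mice 2 and 8 the endothelial median of AAVrh.10Null minus PBS was -0.18. AAVrh.10mCherry minus AAVrh.10Null gave 10 above and 8 below 0 (median 0.05). The 5 flow genes tested had medians of 0.97 and 0.76 against PBS in the same order, and the 9 matrix genes 0.33 and 0.69. MHC class I genes had 3 of 7 above 0 (median -0.19) for AAVrh.10mCherry minus PBS and 4 of 7 (0.16) for AAVrh.10Null minus PBS. Of 34 type I interferon genes 4 were tested, with 1 and 2 above 0 in these comparisons. The summed interferon list stood at 2981, 2385 and 2248 CPM in AAVrh.10mCherry mice, 3304, 2286 and 2645 in AAVrh.10Null mice, and 2039, 3466 and 2308 in PBS mice, and the groups overlapped. The 13 innate sensor genes, 12 of them listed, were too low to be tested. Of 16 immediate early genes 4 were tested. For AAVrh.10mCherry minus AAVrh.10Null all 4 were above 0 (median 1.53, all genes 0.00), with Fos at 50.5, 185 and 184 CPM against 23.4, 41.6 and 48.7 and an adjusted p of 0.998 in edgeR.

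**Figure D5:**
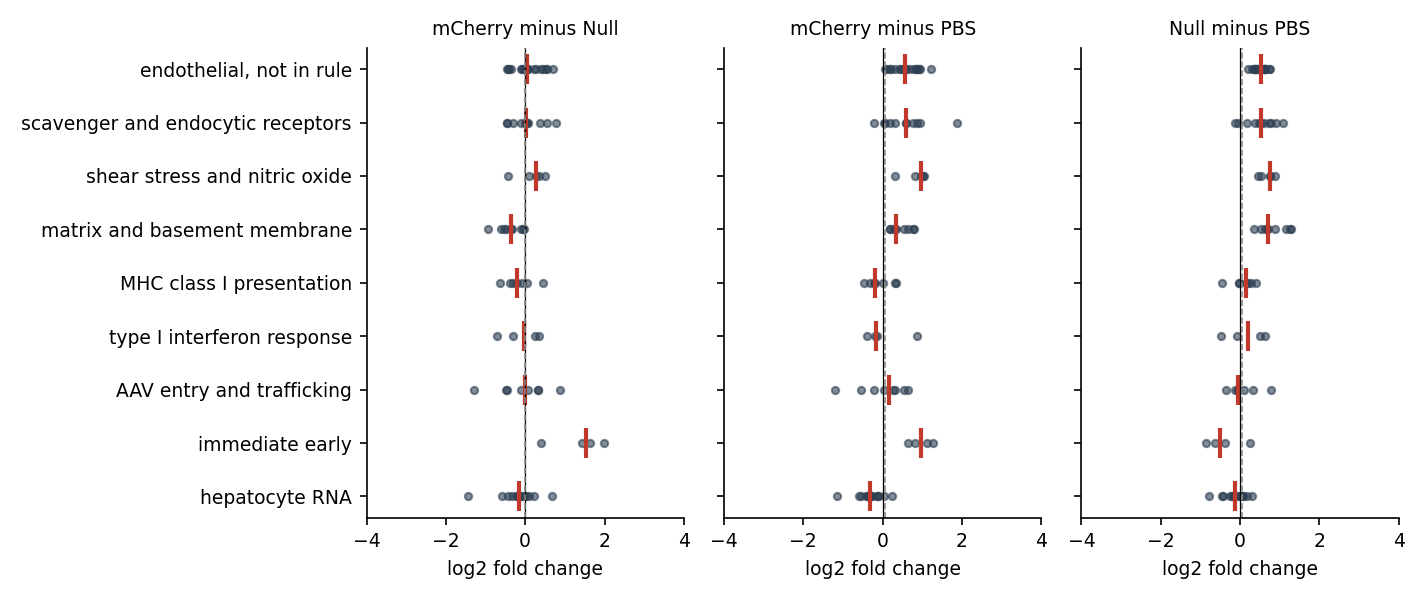
Log2 fold change in the endothelial barcodes for the tested genes of 9 lists in the 3 comparisons between treatments, with 1 point per gene, a red bar at the list median and a dashed line at the median of all genes. The endothelial genes lie above 0 in both comparisons with the shared PBS mice and on both sides of 0 for AAVrh.10mCherry minus AAVrh.10Null.

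Cdkn1a, the cell cycle inhibitor p21 and a p53 target, was singled out after its values were seen. It fell under the filter on low counts in the main fit. The endothelial barcodes of AAVrh.10mCherry mice 3, 6 and 9 held 9, 31 and 10 Cdkn1a UMIs, those of AAVrh.10Null mice 2, 5 and 8 held 3, 0 and 1, and those of PBS mice 1, 4 and 7 held 1, 0 and 0. In CPM this was 152, 260.4 and 76.7, against 35.1, 0.0 and 16.2 and against 6.98, 0.0 and 0.0, so the AAVrh.10mCherry mice lay above all others. Among the 1411 tested genes, which do not include Cdkn1a, 6.38% lay higher in every AAVrh.10mCherry mouse than in every PBS mouse, and 5.81% higher than in every AAVrh.10Null mouse (3.4% lower). A Cdkn1a UMI was present in 8 of 39, 22 of 136 and 5 of 91 endothelial barcodes of the AAVrh.10mCherry mice, or 20.5%, 16.2% and 5.49%, and 5 of the 10 UMIs of mouse 9 lay in 1 barcode. In the AAVrh.10Null and PBS mice the share was 0.0% to 1.90%. With no filter, edgeR gave a log2 difference of 4.67 for AAVrh.10mCherry minus PBS (adjusted p 0.00446) and 2.77 for AAVrh.10mCherry minus AAVrh.10Null (adjusted p 0.489). Of 11 settings in which it could be tested against PBS, 6 called it. Without PBS mouse 1, 4 or 7 the adjusted p was 0.895, 0.860 and 0.443 in edgeR, and without AAVrh.10Null mouse 2 it was 0.0541. Pooled counts gave a ratio of 35.4 to PBS (95% counting interval 6.06 to 1424) and of 6.92 to AAVrh.10Null (2.54 to 26.4). These intervals cover counting error only and leave out the spread between mice, so they are no test of treatment. Mouse 6 alone gave 31 of the 50 pooled AAVrh.10mCherry UMIs.

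In the other barcodes the Cdkn1a level was 46.7, 10.7 and 5.68 CPM in AAVrh.10mCherry mice, 4.66, 3.80 and 5.25 in AAVrh.10Null mice, and 9.03, 18.8 and 76.8 in PBS mice. There the lowest AAVrh.10mCherry value, 5.68 in mouse 9, lay close to the highest AAVrh.10Null value, 5.25 in mouse 8. The AAVrh.10mCherry and PBS mice overlapped. How many genes separate the groups in the other barcodes was not counted. The other 10 genes of the p53 list summed to 286, 370 and 245 CPM in the endothelial barcodes of AAVrh.10mCherry mice, 187, 333 and 227 in AAVrh.10Null mice, and 216, 142 and 209.8 in PBS mice. Ccng1, another p53 target and also singled out after its values were seen, had 50.5, 101 and 69.0 CPM in AAVrh.10mCherry mice, 58.6, 83.1 and 64.9 in AAVrh.10Null mice, and 13.96, 0.0 and 0.0 in PBS mice. These levels rest on 2 to 12 UMIs per mouse in the mice that received a vector and on 0 to 2 in the PBS mice, and no test is given for them. In the other barcodes Ccng1 had 53.8, 43.6 and 31.6 CPM in AAVrh.10mCherry mice, 19.3, 28.03 and 19.05 in AAVrh.10Null mice, and 28.7, 28.1 and 6.98 in PBS mice.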

How the data were processed

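Liver cells of 9 mice were profiled by Drop-seq, per the labels' protocols. The authors deposited 1 table per mouse of whole-number UMI counts per gene and cell barcode, not normalized. mm10 and Seurat are named in the submitters' processing notes; the aligner and counter are not given in the sources used here. Total counts ran from 1083091 to 11220152 UMIs per mouse. Endothelial barcodes were taken by the rule given above, with no limit on mitochondrial share and no doublet calling, and their counts were summed per mouse. Sums were tested with edgeR 4.0.16 (TMM scaling, its filter on low counts, quasi-likelihood test, Benjamini-Hochberg adjustment over all genes, R 4.3.3), once between treatments over all 9 mice and once within mice with the mouse as a block. DESeq2 1.42.0, other scalings, filters, barcode rules and leaving out mice were the alternatives. Shares were compared by exact permutation over mice (scipy 1.17.1), with 95% binomial or Poisson intervals. Scripts were tested on simulated data. Named genes were the 5 of each direction with the smallest p where fewer than 3 passed, up to 4 per list, the 15 largest increases and 10 largest decreases among genes with a mean of at least 50 CPM (UMIs per 1000000 UMIs), the endothelial lists, mCherry and Igkv3-12. The barcodes and the 33 gene lists were chosen with earlier results of these data known.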

Additional observations from a re-analysis of the deposited data

How the results depend on the processing

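Counts of called genes between treatments stayed small under the alternatives. AAVrh.10mCherry against PBS gave 2 genes with no filter on low counts, without mice 2 and 8, and without mice 2, 7 and 8 (an alternative chosen after seeing the data), and 1 to 2 when single mice were left out. The second gene was Cdkn1a each time, also without AAVrh.10Null mouse 5 or 8 or AAVrh.10mCherry mouse 9. AAVrh.10mCherry against AAVrh.10Null gave 2 with no filter (Igkv3-12 added), 0 without mice 2 and 8, which leaves 1 AAVrh.10Null mouse assumed to vary like the others (mCherry adjusted p 0.459 in edgeR), and 1 to 3 when single mice were left out. These additions were Mup21 without AAVrh.10mCherry mouse 3, Dcn and Ier2 without mouse 6, and Mup16 and Mup18 without AAVrh.10Null mouse 8; the Mup genes are near-identical copies whose counts may be split between them. AAVrh.10Null against PBS gave 0 under all 20 alternatives. Within mice, 4752 genes were called with no filter and 3192 when at least 6 rule UMIs were asked for, which leaves PBS mouse 7 out. Leaving out single mice gave 1147 to 3166, the highest without PBS mouse 7, when 8698 genes could be tested, and without PBS mouse 1 they were 391 higher and 1113 lower. Of the 1001 alternative values of single genes in this comparison, 6 turned: Ifi27 with no filter (-0.34), Calr with no scaling beyond totals (0.0536), and B2m with no filter (-0.65), with at least 6 rule UMIs (-0.25) and without PBS mouse 1 (-0.10) or 7 (-0.23). B2m ran from -0.23 to 0.19 over single mice left out.

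The difference in share against PBS turned for AAVrh.10Null with thinning to 500 UMIs (0.253), and for AAVrh.10mCherry with thinning (0.707), with at least 6 rule UMIs (0.371) and with at most 50% mitochondrial UMIs (0.00937). Leaving out single mice, it ran from -0.429 to 0.350 for AAVrh.10mCherry and from -0.914 to -0.298 for AAVrh.10Null. Over single mice left out, AAVrh.10mCherry minus AAVrh.10Null ran from -2.29 to 1.19 for the mitochondrial share and from -3.52 to 0.596 for the hepatocyte-gene share. AAVrh.10Null minus PBS ran from -663 to 198 for median UMIs and from -254 to 116 for median genes. AAVrh.10mCherry minus PBS ran from -395 to 466 for median UMIs and from -98.0 to 272 for median genes. mCherry in AAVrh.10Null minus PBS gave a log2 difference of -1.94 and ran from -2.47 to 0.00 over single mice left out, the 0.00 without PBS mouse 1, the only one of the 6 mice with a UMI. The cause of the other changes was not tested.

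No paired analysis was possible because the treatment groups share no mouse number. For the comparison within mice, dropping the block (no replicate block) gave 918 calls, 475 higher and 443 lower. With 4766 UMIs in 13 endothelial barcodes, PBS mouse 7 limits which genes pass the filter. Without it 1780 genes were tested between treatments, and AAVrh.10mCherry gave 1 call against PBS and 1 against AAVrh.10Null, and AAVrh.10Null against PBS 0.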
